A study of Mus musculus with 9 samples.

Results

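The genes described here encode the machinery that fills, primes and fuses secretory vesicles. They are the rows of the deposited table named as synaptotagmins (Syt), syntaxins (Stx), syntaxin-binding proteins (Stxbp), complexins (Cplx), Vamp, Rab3, synapsins (Syn), Sv2 proteins, secretogranins (Scg) or Cadps proteins, plus Snap25, Synpr, Syp, Chga and Chgb. The names gave 70 members of 25965 listed genes. RNA was sequenced from mouse neural stem cells (C57BL/6) made from E14.5 embryos that carry floxed Smchd1 alleles, in which loxP sites allow Cre recombinase to delete the gene; Smchd1 encodes a chromatin protein that takes part in gene silencing. There were 3 female del/del libraries (lines 1 to 3) and 1 male del/del library (line 5), against 3 female fl/fl libraries (lines 1 to 3) and 2 male fl/fl libraries (lines 5 and 7). Each line had been split: del/del cultures received the retrovirus MSCV-Cre-puro, puromycin from 24 h and harvest on day 7, while fl/fl cultures stayed untransduced. The groups therefore differ in retrovirus, Cre and puromycin as well as in Smchd1, and these cannot be told apart. Here the sample labels were followed, although the text on the design of the series describes all 9 libraries as female and its 5 controls as del/fl.

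In regulated exocytosis a vesicle SNARE (a Vamp) pairs with target SNAREs (a syntaxin and Snap25) to pull the membranes together. Syntaxin-binding proteins hold and guide the syntaxins, complexins clamp the assembled complex, and synaptotagmins release the clamp when calcium enters. Neurons release small transmitter vesicles at synapses in this way. They also release larger dense-core vesicles, which carry peptides and granins and need the priming proteins Cadps and Cadps2. Many family members act outside synapses, in the Golgi, in endosomes or at the plasma membrane of all cells.

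Libraries held 12.9 M to 44.9 M reads in listed genes (M stands for 1e+06), with the fewest in female fl/fl 2, which stands apart from the rest. That library had 53.3% of its reads in listed genes, against 34.8% to 44.4% in the others, and the median level of its kept genes was 4.46 log2 RPM, against 4.10 to 4.38 in the others. Levels are log2 RPM, the log2 of reads per M reads, as deposited by the authors. Testing was limited to genes that reached a log2 RPM of 0 in 3 or more libraries, which kept 14044 genes and 56 members. Smchd1 itself averaged 5.21 ± 0.132 log2 RPM in del/del (SD, n = 4) and 6.39 ± 0.248 log2 RPM in fl/fl (SD, n = 5) libraries, and its fall passed the test (log2 fold change -1.19, limma adjusted p = 0.00751).

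Defining markers were measured beside these genes. Of 13 neural stem cell markers all were kept and none passed the test (the sum of the list was 667 to 898 RPM in del/del and 629 to 1229 RPM in fl/fl libraries). Of 11 kept neuron markers 6 had a log2 fold change above 0, with a median of 0.13. Nefm (log2 fold change 1.49) and Nefl (1.25), both neurofilament genes, rose. The summed level of the list was 305 to 354 RPM in del/del and 236 to 369 RPM in fl/fl libraries. Of 10 kept astrocyte markers 8 lay above 0 (median 0.35), and Gfap (2.07), Aqp4 (1.66) and Slc1a2 (0.66) rose. Their list had a summed level of 377 to 469 RPM in del/del and 309 to 546 RPM in fl/fl libraries. Of 3 kept neuroendocrine markers none lay above 0 (median -0.33), and Insm1, a transcription factor of neuroendocrine differentiation, fell (-0.89). That list had a summed level of 25.0 to 38.3 RPM in del/del and 29.9 to 44.0 RPM in fl/fl libraries. Over all tested genes 1.45% rose and 0.0997% fell. All markers of the neuron, astrocyte and neuroendocrine lists in the table had reads in at least 1 library. None of 8 kept oligodendrocyte, 3 microglia, 2 endothelial and 2 fibroblast markers passed. The part of these shifts in the values of the vesicle genes was not tested, and in bulk RNA fewer cells of a type cannot be told from less RNA per cell.

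Across both sexes, 6 vesicle genes rose in del/del cultures, Synpr, Cadps, Stx11, Syt4, Cadps2 and Syt14, and 1, Syt6, fell (limma, sex as covariate, Benjamini-Hochberg over 14044 genes, threshold 0.05). Both Cadps genes, the primers of dense-core vesicles, were among those that rose, and the other rises were spread over synaptotagmins, syntaxins and the synaptophysin family. Snap25, Vamp2 and Syt1, core genes of synaptic fusion, did not pass: the log2 fold change was 0.01 for Snap25, 0.05 for Vamp2 and -0.33 for Syt1. The 6 rises are 10.7% of the kept members, and over all tested genes 1.45% rose. Syt14, among the 6, was kept through its del/del libraries. The 1 fall is 1.79% of the kept members, and over all tested genes 0.0997% fell. The median log2 fold change was 0.06 over the kept members and -0.00 over all tested genes, with 39 members above 0 and 17 below. With each library centred on its median 5 members rose and 0 fell, since Cadps2, Syt14 and Syt6 missed the threshold and Cplx2 passed. After quantile normalization Cadps, Synpr, Syt4 and Cplx2 rose and Syt6 fell. Over all tested genes 203 rose and 14 fell, against 86 and 18 after quantile normalization and 1122 and 252 with array weights. Leaving out male del/del 5, the only male deleted library, ended all 7 calls (adjusted p = 0.0930 to 0.284). With no male del/del library left, the log2 fold changes of that fit are those of females alone. In that fit 2 of all tested genes rose and 0 fell, so the loss was not particular to these members. All 7 kept their direction in every alternative that tested them (20, and 19 for Syt14, which the stricter filter removes). Their selection by p in the same libraries made this likely.

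The promoters of 4 of the members that passed are shown, Cadps and Synpr because they lie 461.701 kb apart on chromosome 14 and both rose, Cadps2 as the paralogue of Cadps, and Syt6 as the member that fell. Each window runs from 250 bases before to 50 bases after the start site and is written on the gene's strand, from RefSeq (GRCm38.p6), at chr14:12823030-12823329 (minus strand) for Cadps, chr14:13284530-13284829 (plus strand) for Synpr, chr6:23839372-23839671 (minus strand) for Cadps2 and chr3:103574995-103575294 (plus strand) for Syt6. Capitals mark matches to 4 motifs searched on both strands, named below.
Cadps: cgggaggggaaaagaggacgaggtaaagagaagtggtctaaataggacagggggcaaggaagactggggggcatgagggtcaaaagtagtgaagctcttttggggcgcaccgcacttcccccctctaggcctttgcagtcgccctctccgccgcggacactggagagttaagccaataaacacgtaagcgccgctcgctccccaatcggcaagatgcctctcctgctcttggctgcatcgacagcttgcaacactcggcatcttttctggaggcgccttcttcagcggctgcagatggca
Synpr: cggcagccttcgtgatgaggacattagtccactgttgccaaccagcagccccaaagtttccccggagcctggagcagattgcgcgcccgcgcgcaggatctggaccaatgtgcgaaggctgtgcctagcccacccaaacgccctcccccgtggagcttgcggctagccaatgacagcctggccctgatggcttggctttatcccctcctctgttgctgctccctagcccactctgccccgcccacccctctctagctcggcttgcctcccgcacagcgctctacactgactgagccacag
Cadps2: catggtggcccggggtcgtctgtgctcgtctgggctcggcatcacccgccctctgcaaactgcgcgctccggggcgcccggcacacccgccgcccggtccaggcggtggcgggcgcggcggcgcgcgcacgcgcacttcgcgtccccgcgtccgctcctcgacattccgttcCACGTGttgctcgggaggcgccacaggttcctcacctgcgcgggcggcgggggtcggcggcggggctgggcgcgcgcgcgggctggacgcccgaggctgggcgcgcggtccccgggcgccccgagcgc
Syt6: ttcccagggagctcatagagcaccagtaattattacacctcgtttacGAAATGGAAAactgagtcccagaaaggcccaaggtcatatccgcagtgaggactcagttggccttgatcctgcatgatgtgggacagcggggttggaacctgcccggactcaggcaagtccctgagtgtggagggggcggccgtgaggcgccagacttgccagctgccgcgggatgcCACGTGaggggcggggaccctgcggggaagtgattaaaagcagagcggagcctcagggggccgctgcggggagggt

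The motifs were TGACGTCA (the cAMP response element), TTCAGCACC (the start of the site of the neuronal repressor REST), a core of the interferon-stimulated response element (GAAA repeated after 2 bases of any kind) and CACGTG (an E-box). Of all 32851 RefSeq promoter windows 1.79% hold TGACGTCA, 0.371% TTCAGCACC, 3.44% the interferon core and 7.15% CACGTG, and of the 55 matched members 3, 2, 2 and 7 hold them. Among members that passed, CACGTG lies 78 bases before the start of Cadps2, 77 before that of Syt14 and 26 before that of Syt6, and the interferon core lies 203 bases before that of Syt6, and these matches do not overlap. The windows of Cadps, Synpr and Stx11 hold no match to these motifs. Syt4 had no matched window and was not searched. Of the 55 matched windows 49 had a start site within 300 bases of the gene's start in the deposited table. That of Cplx2 lay 68793 bases away. Member promoters had a median GC content of 62.7%, and all promoters 52.7%.

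Cadps and Cadps2 encode CAPS proteins, which ready dense-core vesicles for calcium-triggered fusion. Cadps (chromosome 14, 12372563 to 12823079, mm10, introns included) had 6.17, 5.90 and 5.75 log2 RPM in female del/del 1 to 3 and 5.72 in male del/del 5, against 5.10, 5.00 and 5.15 in female fl/fl 1 to 3, 4.92 in male fl/fl 5 and 5.23 in male fl/fl 7. Every del/del library lay above every fl/fl library. The rise was 1.73-fold, a log2 fold change of 0.79 with an SE of 0.124 (limma adjusted p = 0.0158). Cadps2 (chromosome 6, 23262773 to 23839421) is the lower of the pair, with 1.51, 1.31 and 1.60 log2 RPM in female del/del 1 to 3 and 1.03 in male del/del 5, against 0.20, -0.59 and 0.32 in female fl/fl 1 to 3, 0.09 in male fl/fl 5 and -0.02 in male fl/fl 7. The groups did not overlap, and the counts behind them were 208 to 300 reads per del/del library and 16 to 137 per fl/fl library. Cadps2 rose 2.54-fold, a log2 fold change of 1.34 with an SE of 0.243 (limma adjusted p = 0.0273), and its log2 fold change was 0.81 on the log2(RPM + 1) scale. Without female del/del 2 the adjusted p of Cadps was 0.0718. That of Cadps2 was 0.0541 to 0.141 without any one of the del/del libraries, female fl/fl 3 or male fl/fl 5.

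Synpr encodes synaptoporin, a relative of synaptophysin in the membrane of small synaptic vesicles. Synpr (chromosome 14, 13284780 to 13615459) had 3.30, 3.43 and 3.81 log2 RPM in female del/del 1 to 3 and 3.57 in male del/del 5, against 2.22, 2.53 and 2.42 in female fl/fl 1 to 3, 1.91 in male fl/fl 5 and 2.38 in male fl/fl 7. The lowest del/del library was above the highest fl/fl library, and Synpr had the smallest p of the members. It rose 2.32-fold, a log2 fold change of 1.22 with an SE of 0.153 (limma adjusted p = 0.00751) and passed in 8 of the 9 fits that leave out a library. Syp, synaptophysin itself, moved the other way in size without passing: it had 3.23, 2.99, 2.83 and 2.86 log2 RPM in the del/del libraries, against 3.37, 3.30, 3.13, 3.26 and 3.30 in the fl/fl libraries (log2 fold change -0.30, adjusted p = 0.346). Its del/del values were lower in all 4 lines, yet female del/del 1 lies inside the fl/fl range. The row of Syp also shares bases with the predicted gene Gm14703. Sv2a, a vesicle glycoprotein and the binding site of the drug levetiracetam, had 4.53, 4.54, 4.64 and 4.38 log2 RPM in del/del libraries, against 4.12, 4.06, 4.14, 3.74 and 4.45 in fl/fl libraries. Male fl/fl 7, the line with no deleted partner, was the one fl/fl library within the del/del range. Sv2a missed the threshold (log2 fold change 0.41, adjusted p = 0.267), and passed in the fit with lines as blocks (0.51, adjusted p = 0.0341) and without male fl/fl 7 (adjusted p = 0.0303). These fits are not separate evidence: line 7 has no partner, so the block fit takes no difference from it, and both gave 0.51. Sv2c, a close relative of Sv2a, had a log2 fold change of -0.34 (adjusted p = 0.872), and Sv2b was below the filter.

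**Figure D1:**
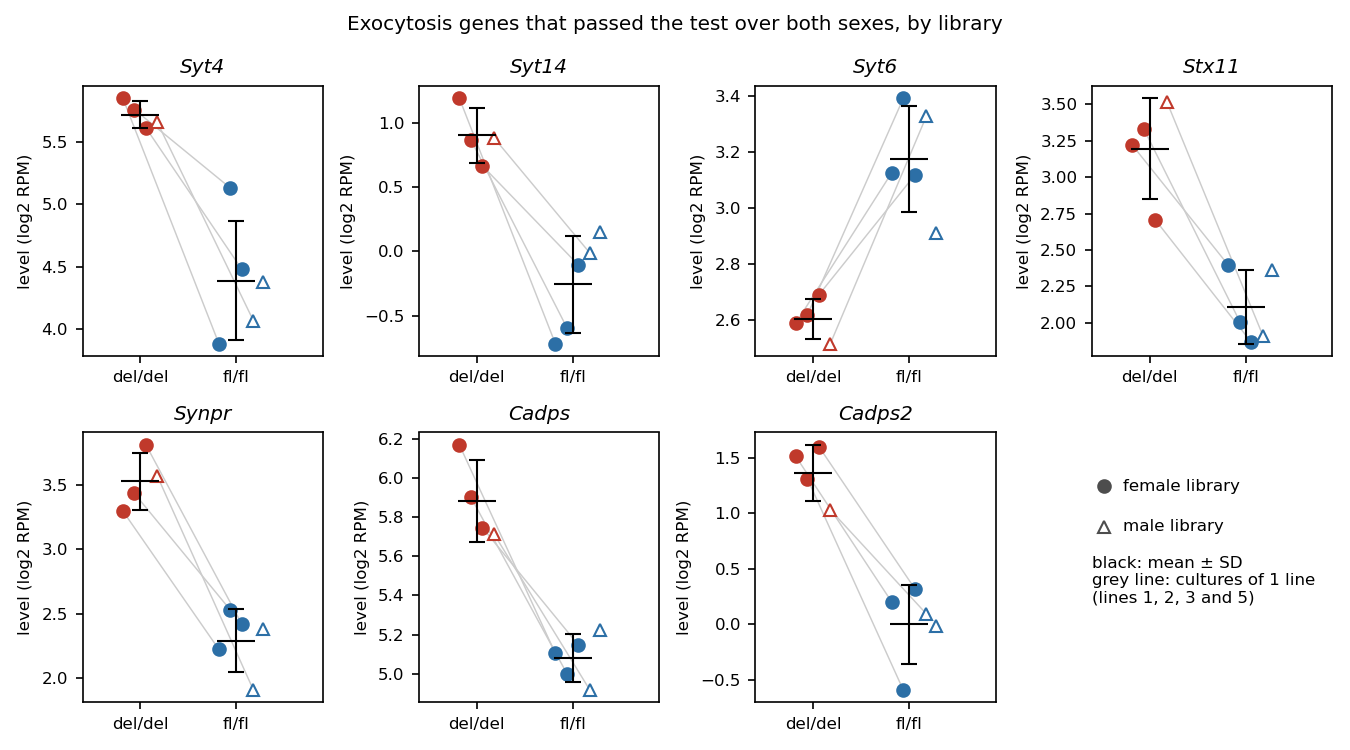
Levels in log2 RPM (vertical axis) of the 7 members that passed, 1 point per library, del/del left of fl/fl in each panel, circles for female and triangles for male libraries, black bars for the group mean ± SD, and grey lines joining the cultures of a line. In all 7 panels the groups do not overlap, with del/del above fl/fl in 6 and below it for Syt6.

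Of 17 synaptotagmins, a family that includes calcium sensors, 11 were kept, of which Syt4 and Syt14 rose and Syt6 fell. Syt4 encodes a synaptotagmin of dense-core vesicles that is induced by neuronal activity. Syt4 (chromosome 18, 31437808 to 31447415) had 5.85, 5.76 and 5.61 log2 RPM in female del/del 1 to 3 and 5.66 in male del/del 5, against 3.88, 5.13 and 4.48 in female fl/fl 1 to 3, 4.07 in male fl/fl 5 and 4.38 in male fl/fl 7. The del/del libraries lay close together (SD 0.107) and the fl/fl libraries were spread more widely (SD 0.479), with female fl/fl 2 the highest of them. Syt4 rose 2.47-fold, a log2 fold change of 1.30 with an SE of 0.218 (limma adjusted p = 0.0194). Its adjusted p was 0.0538 to 0.0804 in the fits that left out female del/del 1, del/del 2, fl/fl 3 or male fl/fl 5. Syt14 encodes a synaptotagmin that does not bind calcium and is one of the least read of the kept members. Syt14 (chromosome 1, 192897307 to 193035698) had 1.19, 0.87 and 0.67 log2 RPM in female del/del 1 to 3 and 0.88 in male del/del 5, against -0.72, -0.59 and -0.11 in female fl/fl 1 to 3, -0.01 in male fl/fl 5 and 0.15 in male fl/fl 7. Only 1 fl/fl library reached the filter level, so Syt14 was kept through its del/del libraries. It rose 2.31-fold, a log2 fold change of 1.21 with an SE of 0.249 (limma adjusted p = 0.0481) on 157 to 192 reads per del/del library and 16 to 128 per fl/fl library, and its log2 fold change was 0.66 on the log2(RPM + 1) scale. Of the fits that leave out a library it passed in the one without male fl/fl 7 (adjusted p = 0.0744 to 0.201 in the others).

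Syt6 encodes a synaptotagmin known for its part in the release of the sperm acrosome. Syt6 (chromosome 3, 103575231 to 103645567) had 2.59, 2.62 and 2.69 log2 RPM in female del/del 1 to 3 and 2.51 in male del/del 5, against 3.13, 3.39 and 3.12 in female fl/fl 1 to 3, 3.33 in male fl/fl 5 and 2.91 in male fl/fl 7. It was lower in every del/del library than in any fl/fl library. The fall was 1.50-fold, a log2 fold change of -0.59 with an SE of 0.117 (limma adjusted p = 0.0421). Like Syt14 it passed without male fl/fl 7 and missed the threshold without any other library (adjusted p = 0.0534 to 0.284). The fast calcium sensor of synapses, Syt1, had 4.61, 4.96, 5.08 and 4.45 log2 RPM in del/del libraries, against 4.73, 5.65, 4.94, 5.12 and 4.90 in fl/fl libraries, with the groups overlapping (adjusted p = 0.762). The slower sensor Syt7 (log2 fold change 0.18), Syt10, a sensor of peptide release in the olfactory bulb (-0.21), and Syt11, the highest synaptotagmin (0.03), also did not pass. Syt2, Syt3, Syt5, Syt8, Syt13 and Syt15 were below the filter.

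Of 16 target SNAREs, the syntaxins and Snap25, 15 were kept and Stx11 passed. Stx11 encodes a syntaxin known for the release of cytotoxic granules by lymphocytes. Stx11 (chromosome 10, 12939983 to 12964259) had 3.22, 3.33 and 2.71 log2 RPM in female del/del 1 to 3 and 3.52 in male del/del 5, against 2.40, 2.01 and 1.87 in female fl/fl 1 to 3, 1.91 in male fl/fl 5 and 2.36 in male fl/fl 7. The groups did not overlap, and line 5 had the widest gap within a line (1.61). It rose 2.17-fold, a log2 fold change of 1.11 with an SE of 0.183 (limma adjusted p = 0.0188). Its adjusted p was 0.0605 to 0.0782 in the fits that left out female fl/fl 3, del/del 1 or del/del 2. The other 14 had log2 fold changes of -0.15 (Stx18, a syntaxin of the endoplasmic reticulum) to 0.13 (Stx5a, a syntaxin of the Golgi). Stx1a, a syntaxin of synapses, had 0.10, and Snap25, its partner, had 1.70, 1.88, 1.97 and 1.85 log2 RPM in del/del libraries, against 1.56, 1.78, 2.22, 1.39 and 2.19 in fl/fl libraries.

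None of the 7 kept syntaxin-binding proteins and 5 kept Vamp genes, the vesicle SNAREs, passed. Stxbp2, or Munc18-2, is the binding partner of Stx11 in lymphocytes. It was read rarely, with 0.11, -0.10, 0.49 and 0.81 log2 RPM in del/del libraries, against -0.53, -0.89, -0.37, -1.36 and 0.16 in fl/fl libraries. Its log2 fold change was 0.96 (SE 0.368, adjusted p = 0.370), and male fl/fl 7 lies inside the del/del range. Male fl/fl 7 alone of the fl/fl libraries reached the filter level, so Stxbp2 was kept through its del/del libraries. In the alternatives other than leaving out a library its log2 fold change was 0.46 to 1.27. Vamp8, a SNARE of endosomes and of granules in secretory cells, had 0.17, 0.19, 0.06 and 0.30 log2 RPM in del/del libraries, against -0.08, -0.78, -0.02, -0.24 and -0.25 in fl/fl libraries. The groups did not overlap, but on 83 to 125 reads per del/del library and 14 to 110 per fl/fl library it missed the threshold (log2 fold change 0.47, adjusted p = 0.721), and no fl/fl library reached the filter level. Stxbp3a had a log2 fold change of 0.17 and Stxbp6 0.24. Vamp2, the vesicle SNARE of synapses, had 0.05, Vamp3 -0.11 and Vamp4 -0.08, and the row of Vamp3 lies wholly inside that of Camta1 and shares its reads.

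No complexin, synapsin, Rab3 gene or granin passed. Cplx2, a complexin, had 5.79, 5.59, 5.61 and 5.50 log2 RPM in del/del libraries, against 5.14, 5.56, 5.24, 5.10 and 5.32 in fl/fl libraries. Female fl/fl 2 alone reached into the del/del range. Cplx2 had a log2 fold change of 0.33 (SE 0.120, adjusted p = 0.327), and Cplx1 0.29 (adjusted p = 0.589). Syn2, a synapsin that tethers vesicles in reserve, had 5.52, 5.49, 5.65 and 5.52 log2 RPM in del/del libraries, against 5.28, 5.09, 5.15, 4.92 and 5.49 in fl/fl libraries. The groups are apart by less than 0.01 at their nearest libraries, female del/del 2 and male fl/fl 7 (log2 fold change 0.37, adjusted p = 0.301). With the reads of Timp4, a gene inside the row of Syn2, taken off, the groups overlap (5.03 log2 RPM in male fl/fl 7, 4.92 in female del/del 1). Rab3a, the GTPase of synaptic vesicles, had a log2 fold change of -0.01, Rab3b 0.07 and Rab3d 0.19. The granins, which form the core of dense-core vesicles, had log2 fold changes of 0.39 (Chga, adjusted p = 0.888), 0.18 (Scg5), 0.13 (Scg3) and -0.12 (Scg2), and Chgb was below the filter.

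**Figure D2:**
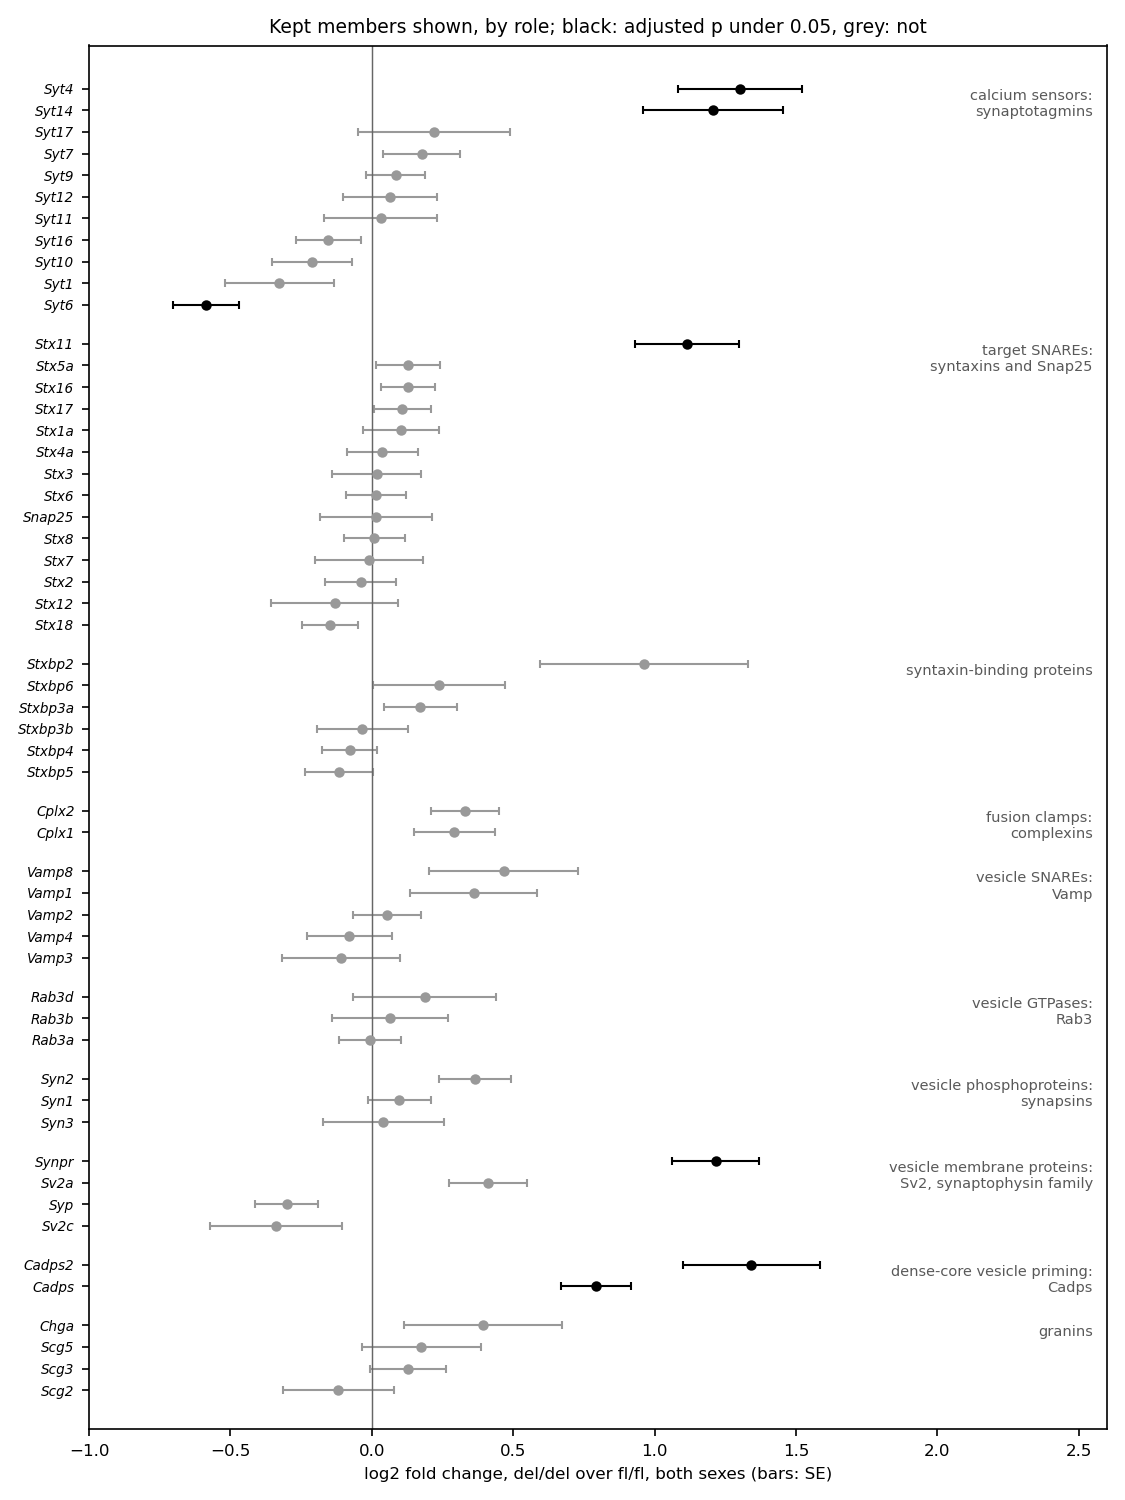
Log2 fold changes (del/del over fl/fl, both sexes) of 54 of the 56 kept members, 1 point per gene, arranged by role, with bars for the SE and black points for the 7 that passed. Both Cadps genes lie to the right of 0, while most syntaxins, syntaxin-binding proteins, Vamp and Rab3 genes lie near 0.

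Several rows hold another gene inside the span that was counted, and the reads of both are summed. In the row of Syn3, 94.0% to 94.5% of the reads in del/del and 94.2% to 96.5% in fl/fl libraries were also counted for Timp3, an inhibitor of metalloproteases that lies in an intron of Syn3. The share of Timp1 in the row of Syn1 was 31.9% to 36.6% in del/del and 25.1% to 33.2% in fl/fl libraries, and that of Timp4 in the row of Syn2 was 25.6% to 34.0% in del/del and 25.7% to 31.8% in fl/fl libraries. In the row of Vamp1, 42.9% to 50.1% of the reads in del/del and 27.3% to 45.3% in fl/fl libraries were those of Tapbpl and Cd27. With these reads taken off, the log2 fold change was 0.02 for Syn1, 0.35 for Syn2 (adjusted p = 0.385), 0.33 for Syn3 (adjusted p = 0.951) and 0.20 for Vamp1, and none passed. Altogether 18 members overlap another row. Of those that passed, Cadps2 holds Rnf133 and Rnf148, which had 5 and 2 reads over all libraries.

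**Figure D3:**
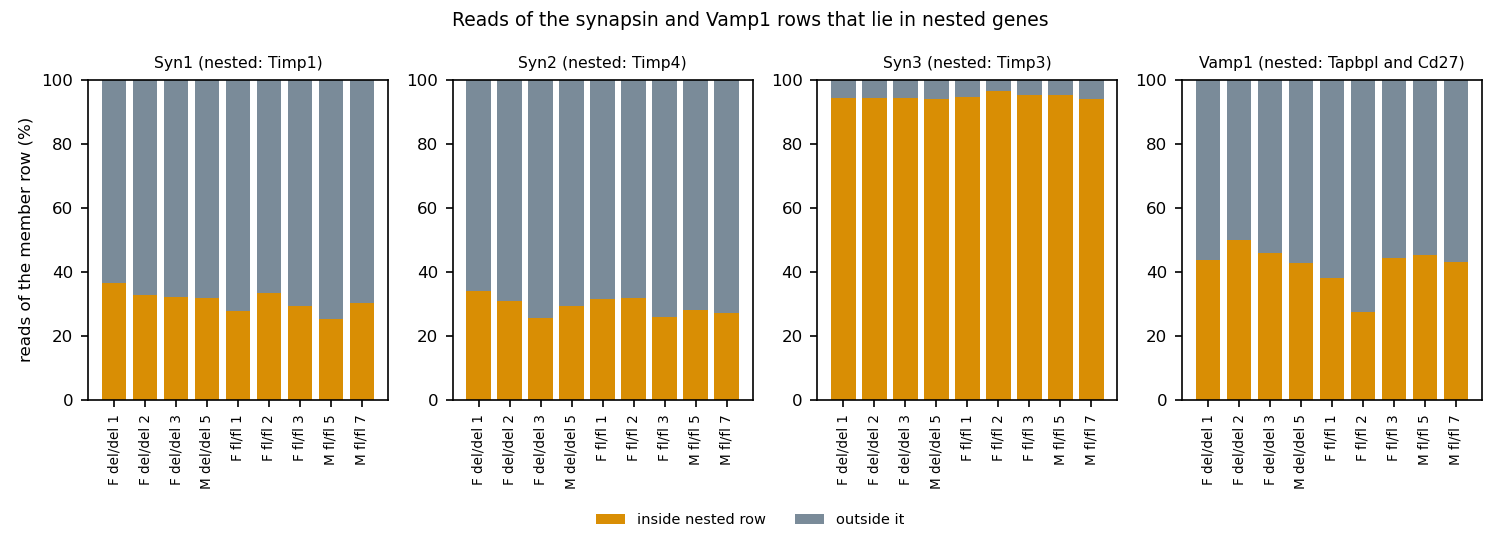
Reads of the rows of Syn1, Syn2, Syn3 and Vamp1 that were also counted for the gene inside the row, as a percentage of the row's reads (vertical axis, the lower, orange part of each bar), 1 bar per library, del/del left of fl/fl. The share is above 94% in every library for Syn3, and 25.1% to 50.1% for the others.

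Levels were compared between genes per length, as RPM per kb of exons, over the 54 kept members with an exon length. In fl/fl libraries the median was 15.5 RPM per kb for Stx12, an endosomal syntaxin, 12.9 for Vamp3, 12.6 for Stx4a, 12.3 for Syt11 and 11.9 for Rab3b, so the members with the highest levels include general trafficking genes. Synaptic members named here were lower in the same libraries: Vamp2 had a median of 8.29 RPM per kb, Syt1 3.67, Syp 1.89 and Snap25 0.507, the 46th of the 54. Synpr (0.553), Stx11 (0.956), Cadps2 (0.112) and Syt14 (0.0779), 4 of the 6 that rose, had low levels in this order, while Cadps (2.28) was the 32nd and Syt4 (5.35) the 16th. The rows count introns too, so these levels are approximate, and the values for rows that hold another gene include its reads. The 14 members below the filter had 0 to 139 reads per library.

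By sample, 8 members (14.3% of those kept) had every del/del library above every fl/fl library, the 6 that rose plus Syn2 and Vamp8, and over all tested genes 5.53% did. Of these 8, Syt14 and Vamp8 were kept through their del/del libraries. Syn2 is among the 8 only with the reads of Timp4 included, and its groups overlap without them. Syt6 alone (1.79%) was lower in every del/del library, as were 0.99% of all tested genes. Within lines 1, 2, 3 and 5, 17 members (30.4%) were higher in the del/del culture in all 4 pairs, against 17.9% of all tested genes. Syt14, Vamp8 and Stxbp2, among these 17, were kept through their del/del libraries. Syt6 and Syp (3.57%) were lower in all 4, against 4.05% of all tested genes. All 7 members that passed moved the same way in all 4 lines: within a line Synpr differed by 0.91 to 1.66, Syt4 by 0.63 to 1.97 and Cadps by 0.60 to 1.07 log2 RPM. In the fit with lines as blocks 8 members passed, the 7 and Sv2a, which is 14.3% of those kept, while 3.99% of all tested genes passed.

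In females alone (3 del/del against 3 fl/fl) 0 members passed in limma, where 9 (16.1% of those kept, against 6.52% of all tested genes) had an unadjusted p under 0.05, and 0.0142% of all tested genes passed. Leaving out female fl/fl 2 let Syt4 pass in females. In the fit with lines as blocks 5 passed in females, Syt14, Cadps2, Stx11, Synpr and Syt4 (8.93% of those kept), and 2.04% of all tested genes did. In females the log2 fold change was 1.12 for Synpr, 0.86 for Cadps, 1.00 for Stx11, 1.24 for Syt4, 1.50 for Cadps2, 1.38 for Syt14 and -0.58 for Syt6. In males (1 del/del against 2 fl/fl) it was 1.42 for Synpr, 0.64 for Cadps, 1.38 for Stx11, 1.43 for Syt4, 0.99 for Cadps2, 0.82 for Syt14 and -0.60 for Syt6. The direction was the same in both sexes for all 7. In males 0 members passed in limma, where 5 (8.93% of those kept, against 2.63% of all tested genes) had an unadjusted p under 0.05, and 0% of all tested genes passed. For that fit the spread of male del/del 5, a single library, was taken from the other groups. The difference between the sexes (female minus male) passed for 0 members in limma, where 0 had an unadjusted p under 0.05, and for 0% of all tested genes.

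**Figure D4:**
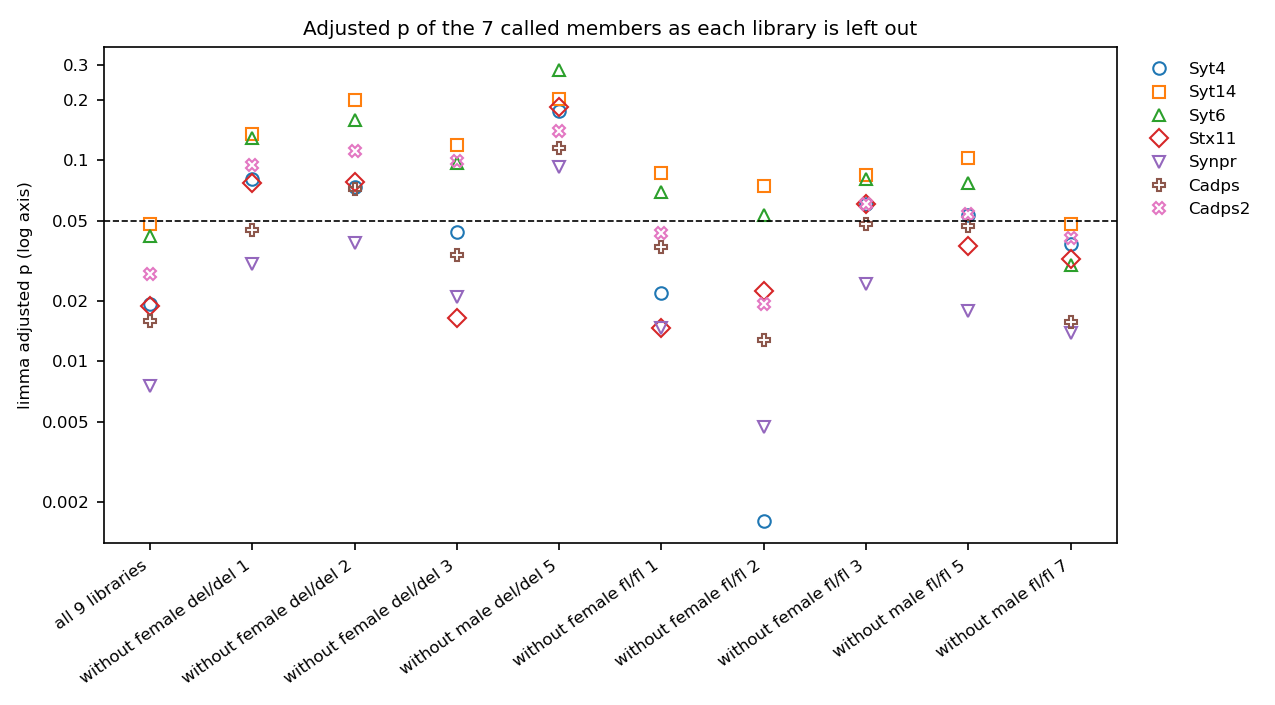
Adjusted p (log axis) of the 7 members that passed, with all libraries and with each library left out in turn, and a line at the threshold of 0.05. Every gene is above the line without male del/del 5 (0.0930 to 0.284), and Synpr is below it in the other 8. Without male del/del 5 the fit compares females alone, and 2 of all tested genes passed.

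Other genes of the vesicle cycle were listed by function. Of 108 listed, 93 were kept, 2 rose and none fell, and the median log2 fold change of the kept ones was 0.05. The 2 are 2.15% of those kept, near the 1.45% of all tested genes that rose. Both that rose come from the list for dense-core granule cargo processing. Of its 7 kept genes 4 had a log2 fold change above 0, with a median of 0.44. Ptprn encodes IA-2, a membrane protein of dense-core granules (chromosome 1, 75247041 to 75264208). Ptprn had 5.32, 5.10 and 4.60 log2 RPM in female del/del 1 to 3 and 5.17 in male del/del 5, against 3.23 to 3.84 in female fl/fl 1 to 3, 3.44 in male fl/fl 5 and 3.89 in male fl/fl 7 (log2 fold change of 1.42 with an SE of 0.187, limma adjusted p = 0.00835). Pcsk2, a convertase that cuts prohormones in these granules (chromosome 2, 143546156 to 143816285), had 1.46, 0.95 and 1.30 log2 RPM in female del/del 1 to 3 and 1.33 in male del/del 5, against -0.02, -0.78 and -0.09 in female fl/fl 1 to 3, -0.81 in male fl/fl 5 and -0.48 in male fl/fl 7. No fl/fl library reached the lowest del/del library for either gene, and no fl/fl library of Pcsk2 reached the filter level, so it was kept through its del/del libraries. Pcsk2 rose on 203 to 256 reads per del/del library and 14 to 115 per fl/fl library (log2 fold change of 1.67 with an SE of 0.257, limma adjusted p = 0.0146; 0.95 on the log2(RPM + 1) scale). Without male del/del 5 the adjusted p was 0.0941 for Ptprn and 0.177 for Pcsk2, and without female del/del 1 it was 0.0597 for Pcsk2.

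None of the 20 kept active zone genes passed, the nearest being Rimbp2, which links calcium channels to release sites (log2 fold change 2.11, adjusted p = 0.0637), and Rph3a, an effector of Rab3 (2.03, adjusted p = 0.164). Both were read rarely, with as few as 6 reads for Rimbp2 and 5 for Rph3a in female fl/fl 2. On the log2(RPM + 1) scale the log2 fold change was 0.85 for Rimbp2, which then passed (adjusted p = 0.0152), and 0.81 for Rph3a (adjusted p = 0.103). No fl/fl library of Rimbp2 and 1 of Rph3a reached the filter level, so both were kept through their del/del libraries. Nor did any of 13 kept genes of vesicle membrane proteins and transmitter transporters, with Slc6a17, an amino acid transporter of vesicles, at 0.80 (adjusted p = 0.0637) and Svop at 0.83 (adjusted p = 0.132). In the fit with lines as blocks 7 genes of these lists passed: Ptprn, Pcsk2, Pcsk1n (adjusted p = 0.0389), Rimbp2 (0.00452), Rph3a (0.00425), Slc6a17 (0.00656) and Svop (0.00994). They are 7.53% of those kept, and 3.99% of all tested genes passed in that fit. The lists of SNARE recycling (15 kept), endocytosis (29 kept) and Rab3 and Rab27 regulators (9 kept) had no gene that passed and medians of -0.00, 0.05 and 0.15.

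Synpr and Cadps lie 461.701 kb apart. Within 1000 kb of Synpr 8 of 16 rows were kept, and 2 passed, Cadps and Il3ra, a cytokine receptor chain 731.036 kb away (log2 fold change 1.47, adjusted p = 0.0483). Within 1000 kb of Cadps 4 of 10 rows were kept and Synpr alone passed. No other gene within 1000 kb of Stx11, Syt4, Cadps2, Syt14 or Syt6 passed.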

How the data were processed

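Total RNA of neural stem cells was sequenced, and tests were made on a single table. Per the submitters' processing notes the tools were bcl2fastq, TopHat2 2.0.12, edgeR 3.8.2 and the build mm10. Read counter, annotation release and use of strand were not given in sources used here. The authors deposited log2 RPM values per gene span, introns and nested genes included. At least 99.9948% of the values in each library were whole reads within 0.05 reads (24.1 M to 116.6 M reads per library), with no read entered as 0.9 reads. Scaling is to these totals, of which 34.8% to 53.3% fell in listed genes.

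From the deposited log2 values, genes that reached 0 in 3 or more libraries were kept and tested two-sided with limma 3.58.1 (R 4.3.3, eBayes on an lmFit with trend), with sex as covariate (6 residual degrees of freedom) and Benjamini-Hochberg adjustment over 14044 genes at a threshold of 0.05. Females, males and their difference were fitted together as 4 group means, with 5 residual degrees of freedom. With sparse reads per library the precision is limited by counting, and with 4 and 5 libraries by their number. The steps were tested on simulated data.

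Line numbers pair the libraries of lines 1, 2, 3 and 5, since each line was split, per the labels' growth protocol. As a check, deviations from the group mean correlated across genes with r = 0.868, 0.582 and 0.758 within female lines 1 to 3, but also with 0.728 between del/del 2 and fl/fl 3 and 0.494 between del/del 3 and fl/fl 2. Deviations from a mean of 3 libraries cancel out, so these values depend on one another. Both female libraries of line 1 lack the RNA- prefix in their sample description, and those of lines 2 and 3 have it. Of the male libraries fl/fl 7 lacks it too, and those of line 5 have it. The check therefore cannot tell pairing from that split. The block fit had 3 residual degrees of freedom. The cultures of a group are separate lines, per the labels.

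The members and lists were chosen with earlier results of these data known. The rule named members that passed, in each role those with the smallest p or highest level, and list genes that passed or came nearest; the motifs, the nearby genes and the alternative that takes off nested reads were chosen after values were seen. Other alternatives were another normalization, pseudocount or filter, voom, array weights, no sex term, the libraries with the RNA- prefix, and leaving out each library. Exon lengths were from GENCODE vM21 (68 members matched). Members that are counted but not named are not reported here.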

Additional observations from a re-analysis of the deposited data

Results flagged for a closer look

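The levels of the kept members were checked for a library that lies far from the rest of its group by Dixon's test, in 112 groups of 4 del/del or 5 fl/fl libraries. It marked 12, and chance marks about 1 in 20 groups. In 8 the library was female fl/fl 2, the shallowest, above the other fl/fl libraries. Its level was 6.68 log2 RPM for Stx12 (others 5.57 to 5.67), 6.18 for Vamp3 (5.11 to 5.30), 6.20 for Stx7 (5.27 to 5.43), 5.40 for Vamp4 (4.65 to 4.86), 6.86 for Syt11 (5.95 to 6.14), 6.33 for Rab3b (5.27 to 5.49), 4.62 for Scg3 (4.09 to 4.23) and 2.88 for Stxbp3b (2.12 to 2.31). Female del/del 1 was above the other del/del libraries for Stx12, at 6.02 log2 RPM (others 5.62 to 5.65), and for Vamp3, at 5.56 (5.20 to 5.25). Male fl/fl 5 was the highest fl/fl library for Syt9, at 2.92 log2 RPM (others 2.62 to 2.65). Female fl/fl 3 was the lowest fl/fl library for Stxbp4, at 4.71 log2 RPM (others 4.92 to 4.98). None of these genes passed the comparison of del/del with fl/fl.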

How the results depend on the processing

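The 7 members that passed kept their sign in every alternative that tested them (20, and 19 for Syt14), while 24 of the 49 that did not pass changed sign in at least 1. Every alternative reuses these libraries, and the 7 were picked by their p in them, so a kept sign was likely from the start. Counts of calls moved more, and the cause was not tested. Over all genes 217 passed, against 561 with the line as a replicate block, 104 after quantile normalization (82.7% of them rises, against 93.5%), 1374 with array weights (81.7% rises), and 2 to 252 with 1 library left out. Of the members 7 passed, against 13 with array weights, 2 (Stx11 and Synpr) in the libraries with the RNA- prefix, and 0 to 8 with 1 library left out. Of the other vesicle cycle genes 2 passed, against 7 with the replicate block, 5 with the block and median centring, 1 after quantile normalization, 4 with no filter on low values, 1 with a stricter filter, 13 with array weights, 4 with no sex term, 4 in the libraries with the RNA- prefix, and 0 to 5 with 1 library left out. In females 2 genes passed, against 287 with the replicate block and 0 to 7 with 1 library left out. The block changed no member's call over both sexes other than that of Sv2a, and leaving out male fl/fl 7 gave the same 8 members. Limma's voom on the recovered reads called 264 genes and 6 members, all but Syt6. Without female fl/fl 2, 5 members passed (not Syt14 or Syt6), with a median log2 fold change of 0.08 over all genes. Array weights ranged from 0.0706 (female fl/fl 2) to 71.6 (male del/del 5), so that fit rests mainly on few libraries. Depth limits the members with few reads, among them Cadps2, Syt14, Stxbp2 and Vamp8.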
